A study of Mus musculus with 10 samples.

Results

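The comparison set the 2 libraries labelled A2iL against the 2 libraries labelled 2iL, 4 of the 10 RNA-seq libraries of the series. They were chosen by their labels alone, with no measured value. All came from mouse embryonic stem cells (strain label C57BL6X129S6F1), and the labels number the libraries of each condition 3 and 5, without saying whether the numbers stand for cultures, passages or lines. The labels describe A2iL and 2iL as serum-free N2B27 cultures with 1000 IU mLIF, the cytokine that sustains self-renewal, and with the GSK3 inhibitor Chir99021 at 3 µM. The A2iL medium also held 1.5 µM CGP77675, an inhibitor of Src family kinases, and the 2iL medium 1 µM PD0325901, an inhibitor of the kinase MEK. Both are labelled as grown with feeder cells, the fibroblasts on which stem cells are often cultured. Where it helps, the 3 other conditions are given beside them: 2iL-F, with the 2iL medium and labelled as grown without feeder cells, SL, with 15% FBS, mLIF and feeder cells, and LCDM, with N2B27, mLIF, Chir99021, 2 µM each of Dim and Mih, and feeder cells. The comparison asks what differs in the RNA when a Src inhibitor stands in place of a MEK inhibitor. Nothing in the labels says that the libraries of a condition are separate cultures, so the p-values measure only the spread between these samples, which may be technical.

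FGF4 made by mouse embryonic stem cells themselves signals through FGF receptors, RAS and MEK to the kinase ERK, which moves cells out of the naive state. Active ERK also switches on its own inhibitors, the Sprouty and Spred proteins and the DUSP phosphatases, so that their RNA is a usual readout of the pathway. Src family kinases lie near receptors and integrins and feed into several pathways, ERK among them. Inhibition of GSK3 stabilises beta-catenin, which relieves repression of naive genes by TCF7L1. MEK inhibition is known for high and even levels of naive factors and for low levels of de novo DNA methyltransferases.

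The feeder labels and the RNA did not match: fibroblast RNA was nearly absent from the libraries labelled 2iL, with feeder cells, and abundant in those labelled 2iL-F, without. The names 2iL and 2iL-F below are those of the labels. Of 46 fibroblast markers, 18 had at least 1 TPM (a transcript's share of the RNA corrected for its length, the deposited unit) in both libraries labelled 2iL and 8 were at 0 in both, among them Lox, Dcn, Postn and Thbs2, while 45 had at least 1 TPM in both A2iL libraries. Their summed level was 1118 and 1184 TPM in the 2iL libraries, 5042 and 4927 in A2iL, 6496 and 6257 in 2iL-F, 7062 and 7349 in SL and 1767 and 1750 in LCDM. In 2iL, 73.4% of that sum came from Sparc and Fn1, which stem cells and early endoderm express too. Fibroblast RNA thus separates the groups compared here, and 2iL-F, with the 2iL medium, had more of it than A2iL. For this reason differences from 2iL are given together with those from 2iL-F, each with its own values, although the 2 comparisons share the A2iL libraries and are not independent. In bulk RNA, fewer cells of a type and less RNA per cell cannot be told apart. Defining stem cell markers were high in all 4 libraries: Pou5f1 was at 1367 and 1360 TPM in 2iL and 1064 and 1094 in A2iL, and the 10 core pluripotency genes each had at least 1 TPM in every one.

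**Figure D1:**
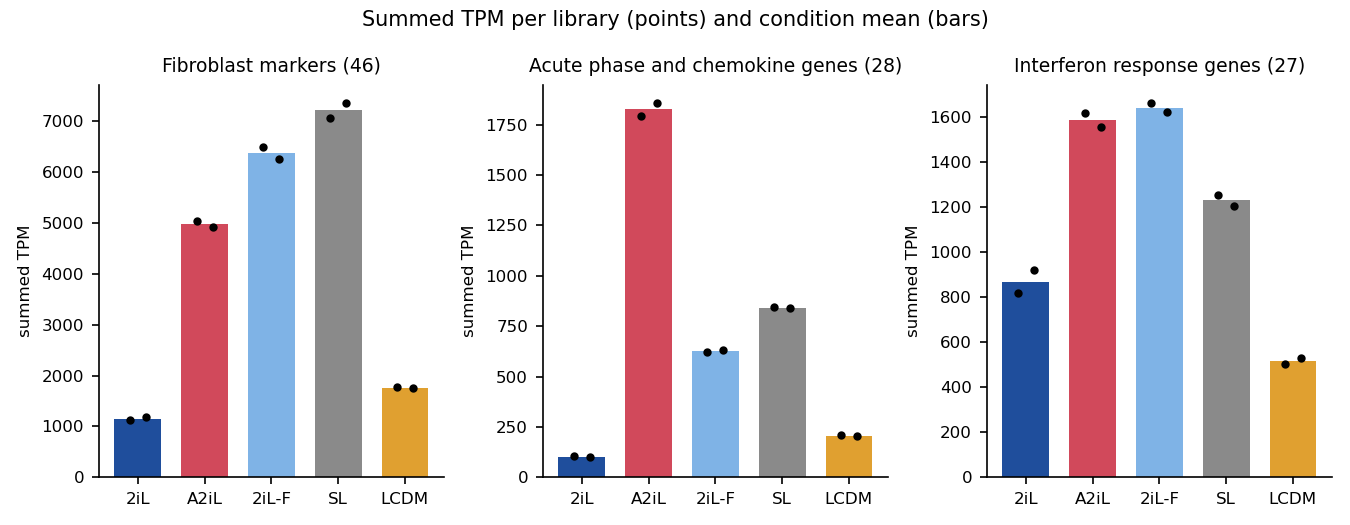
Summed TPM (vertical axes, from 0) of 46 fibroblast markers, 28 acute phase and chemokine genes and 27 interferon response genes in each condition; points are libraries and bars are condition means. The fibroblast sum was lowest in 2iL, the acute phase sum was highest in A2iL at 1793 and 1856 TPM, and the interferon sum was about equal in A2iL and 2iL-F.

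Of 14578 lines tested in the deposited table, 69.5% were called at an adjusted p below 0.05 by limma: 33.2% of the lines tested were higher and 36.2% lower in A2iL than in 2iL. A difference of at least 1 on the log2(TPM + 1) scale was called for 1658 lines higher (11.4%) and 1337 lower (9.17%). Against 2iL-F, 45.3% were called, 22.2% higher and 23.0% lower in A2iL, with 562 (3.86%) and 624 (4.28%) by at least 1. Since most lines were called, a count of called members of a gene list says little alone, and the counts below are read against these shares by direction. The median difference over all lines was -0.01. At 0 in both 2iL libraries and at 1 TPM or more in both A2iL libraries were 240 lines, against 34 the other way round. Among the lines tested, 865 followed the mean of the fibroblast markers across the 10 libraries (Pearson r above 0.9), and without them the lines higher by at least 1 numbered 1044. Of the 46 fibroblast markers themselves, 12 did not follow that mean, and 10 of these 12 were higher in A2iL than in 2iL. A gene below that r is thus not set apart from fibroblast genes. Genes are named only from the upper part of the table, where symbols stand beside their own values (98.1% of 103 genes of broadly expressed families had a mean of at least 5 TPM there, against 45.6% of 68 in the rest). Below, differences are A2iL minus 2iL in log2(TPM + 1) ± SE, and pairs of values are the libraries numbered 3 and 5. The scale understates the change of genes at low TPM.

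Feedback inhibitors of ERK were higher in A2iL. Of the 7 tested, 6 rose and 1 fell (median difference 1.81), and against 2iL-F the counts were also 6 and 1 (median 1.57). Spry4, a Sprouty protein that blocks signalling from receptors to RAS, had 0.229 and 0.287 TPM in 2iL and 31.4 and 32.5 in A2iL, a difference of 4.71 ± 0.08 (adjusted p = 3.51e-10). The groups lay far apart, and 2iL-F, at 0.429 and 0.343 TPM, was close to 2iL, while SL and LCDM had means of 27 and 17.4. Dusp6, the cytoplasmic phosphatase of ERK (mm10, chr10:99263231-99267489), had 2.49 and 2.63 TPM in 2iL and 59.3 and 54.4 in A2iL (4.02 ± 0.06, adjusted p = 2.3e-10). Its 2iL-F values of 6.59 and 6.22 TPM lay above 2iL and well below A2iL (2.96 ± 0.06 against 2iL-F). Dusp4, a nuclear phosphatase of ERK, went from 8.67 and 8.87 to 41.4 and 42.6 TPM (2.14 ± 0.07), Spred1, a membrane inhibitor of RAS signalling, differed by 1.81 ± 0.08 and Spry2 by 1.35 ± 0.08. The exception was Dusp9, a phosphatase of ERK known to be induced by BMP signalling, with 67.2 and 57.9 TPM in 2iL and 24.9 and 24.6 in A2iL (-1.30 ± 0.07, adjusted p = 4.05e-07). Its highest level was in LCDM, with a mean of 145 TPM, and the A2iL libraries were the lowest of the 10. None of the 7 followed the fibroblast markers.

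**Figure D2:**
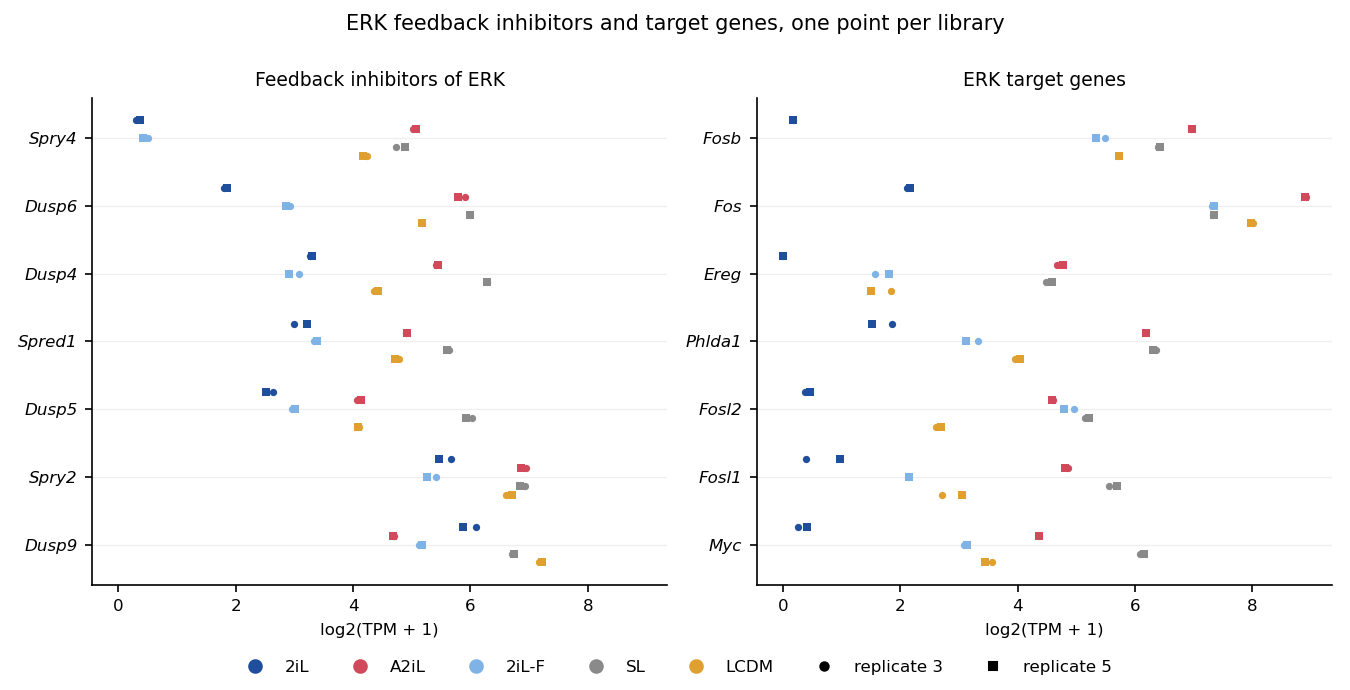
Level of 7 ERK feedback inhibitors (left) and 7 ERK target genes (right) in log2(TPM + 1); colours are conditions, circles and squares the libraries numbered 3 and 5. In each gene but Dusp9 the A2iL libraries lie to the right of both 2iL libraries, and Spry4 is near 0 in both groups with the 2iL medium.

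The promoter of Dusp5, another nuclear phosphatase of ERK, is printed because it holds a pair of adjacent CArG boxes, the letters bound by serum response factor. It stands beside that of Dusp1, an immediate early phosphatase, which holds a CRE, the letters TGACGTCA bound by CREB. Each is the 150 bases before the transcription start in RefSeq's table for GRCm38.p6 (mm10), and capitals mark the motif. For Dusp5 the region is chr19:53528995-53529144, plus strand, with the boxes beginning 82 and 72 bases before the start. For Dusp1 it is chr17:26508473-26508622, minus strand, with the CRE beginning 143 bases before the start.
Dusp5: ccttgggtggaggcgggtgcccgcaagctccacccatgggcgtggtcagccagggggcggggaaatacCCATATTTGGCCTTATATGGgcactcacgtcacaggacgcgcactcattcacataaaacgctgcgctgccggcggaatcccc
Dusp1: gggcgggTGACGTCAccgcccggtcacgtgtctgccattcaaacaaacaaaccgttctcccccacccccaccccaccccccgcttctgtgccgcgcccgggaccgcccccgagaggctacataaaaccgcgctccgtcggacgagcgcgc
Searched on both strands of windows from 250 bases before to 50 after the start, the CArG box was found in 1 of the 4 feedback inhibitors with a window and in 1.81% of 27025 genes. Of 16 ERK target genes with a window, none held a CArG box or the AP-1 site TGANTCA (8.97% of all genes). The CRE was found in 3 of the 16 (Dusp1, Btg2 and Areg), or 18.8%, against 2.03% of all genes. None of the matches printed overlaps another motif searched. Dusp5 had 5.25 and 4.7 TPM in 2iL and 15.7 and 16.6 in A2iL (1.52 ± 0.07), with 6.79 and 7.03 in 2iL-F. Dusp1, named here after its values were seen, differed by 2.98 ± 0.07 from 2iL and by 1.25 ± 0.07 from 2iL-F.

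Among ERK immediate early and target genes, 22 of 23 tested rose, none fell and Elk1, named for that reason, was not called (median 1.85), and against 2iL-F 20 were higher and 1 lower (median 0.98). The list includes Fos, the AP-1 subunit made within minutes of ERK activation, at 3.32 and 3.47 TPM in 2iL and 479.6 and 473 in A2iL (6.76 ± 0.04, adjusted p = 2.38e-12). Its 2iL-F libraries, at 159 and 162 TPM, lay between the 2 groups, and 160.5 was the mean in SL. Fosb and Fosl1, partners of the same family, differed by 6.79 ± 0.06 and 4.15 ± 0.18, and Fosb followed the fibroblast markers. Phlda1, a target of ERK with a pleckstrin-like domain, had 2.62 and 1.87 TPM in 2iL, 71.5 and 71.6 in A2iL and 9.04 and 7.68 in 2iL-F. Ereg, a ligand of the EGF receptor, was at 0 in both 2iL libraries, at 24.6 and 26.2 TPM in A2iL and at 1.97 and 2.5 in 2iL-F. Myc, a growth regulator under ERK and STAT3, had 0.194 and 0.334 TPM in 2iL and 19.6 and 19.5 in A2iL (4.03 ± 0.07), with 7.5 and 7.78 in 2iL-F and a mean of 68.6 in SL, the highest. Fosl2, another AP-1 subunit that followed those markers, was lower than in 2iL-F, with 23.2 and 23 TPM in A2iL and 30.3 and 26.8 in 2iL-F (-0.29 ± 0.08, adjusted p = 0.0137), against 0.299 and 0.374 in 2iL. Of the 23 genes, 4 followed the fibroblast markers, and 18 of the 19 others were higher than in 2iL; the part of fibroblast RNA in these differences was not tested.

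Components upstream of ERK were mostly lower, by smaller amounts. Of 23 tested FGF pathway components, 3 were higher and 14 lower than in 2iL (median -0.33), and 2 higher and 7 lower than in 2iL-F. Ksr1, a scaffold of the kinase cascade, had 9.16 and 9.34 TPM in 2iL and 3.07 and 2.93 in A2iL (-1.36 ± 0.07), without overlap. Fgf10, a ligand, fell by 1.67 ± 0.11 on the same scale, and Fgfr2, a receptor, rose by 1.14 ± 0.08. Map2k1 and Map2k2, which encode the MEK proteins that PD0325901 inhibits, showed small differences. Map2k1 had 96.5 and 103 TPM in 2iL and 92.4 and 91.2 in A2iL (-0.12 ± 0.05, adjusted p = 0.0522), which did not pass. Map2k2 had 44.7 and 38.5 in 2iL and 58.5 and 53.3 in A2iL (0.42 ± 0.08), without overlap. In 2iL-F it had 58.5 and 53 TPM, level with A2iL (0.00 ± 0.08, adjusted p = 0.973). Map2k1 did not pass against 2iL-F either (-0.13 ± 0.05, adjusted p = 0.0557).

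The kinases that CGP77675 inhibits were expressed in both groups, and their RNA differed little. RNA does not report kinase activity. Of 11 tested Src family kinases and regulators, 4 were higher and 2 lower than in 2iL (median 0.11). Src itself had 81 and 73.5 TPM in 2iL and 68.2 and 67.1 in A2iL (-0.19 ± 0.08, adjusted p = 0.0522), and Yes1, another member, 20.1 and 25.8 against 25.1 and 26.7 (0.18 ± 0.10, adjusted p = 0.149). Neither passed, and the Src call turned with several settings (adjusted p = 0.0272 without the 2iL library numbered 5), as did that of Yes1 (0.00177 without the same library). Among the other members, Fyn rose from 11.6 and 11.3 to 17.2 and 17.9 TPM (0.57 ± 0.06) and Lck from 15.5 and 16.1 to 24.5 and 25.6 (0.63 ± 0.05). Csk, the kinase that keeps Src family members inactive, fell from 36 and 38.8 to 28.6 and 27.8 TPM (-0.39 ± 0.06), and Ptpn1, a phosphatase that can activate Src, rose by 0.58 ± 0.06. Of 23 tested Src substrates and focal adhesion genes, 13 were higher and 4 lower than in 2iL (2 lower without either A2iL library), against 9 and 5 compared with 2iL-F. Cav1, caveolin, was at 0 in both 2iL libraries and at 38.7 and 39.7 TPM in A2iL, and Zyx, zyxin of focal adhesions, had 9.22 and 9.64 against 39.1 and 39.1 TPM. Both are also abundant in fibroblasts, and 2iL-F had 20.2 and 21.1 TPM of Cav1 and 29.2 and 28.5 of Zyx.

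Naive pluripotency factors divided. Of 16 tested, 7 were higher and 9 lower than in 2iL (median -0.39), and 3 higher and 10 lower than in 2iL-F (median -0.42); none followed the fibroblast markers. Nanog, a central factor of self-renewal (chr6:122707489-122714633), had 606 and 729 TPM in 2iL and 269.6 and 264 in A2iL (-1.31 ± 0.08, adjusted p = 8.91e-07). With 652 and 643 TPM in 2iL-F and a mean of 134 in SL, A2iL lay between the 2iL medium and serum, and no library of A2iL overlapped another condition. Tfcp2l1, a LIF-responsive naive factor, had 201 and 239 TPM in 2iL, 124 and 122 in A2iL and 202 and 203 in 2iL-F (-0.83 ± 0.07 from 2iL), against a mean of 18.4 in SL. Esrrb, a target of GSK3 inhibition through TCF7L1, differed little, with 274 and 288 TPM in 2iL and 236 and 227 in A2iL (-0.28 ± 0.05, adjusted p = 0.00115). Ooep, an oocyte and embryo protein on the list, had 75 and 88.2 TPM in 2iL, 69.7 and 64.9 in 2iL-F and 21.1 and 22.9 in A2iL (-1.84 ± 0.09), and Fbxo15, an OCT4 target, 140 and 161 in 2iL and 48.9 and 47.6 in A2iL (-1.62 ± 0.07). In neither gene did A2iL overlap the other 2 groups. Spic, an ETS factor of the 2iL state, had 6.25 and 7.08 TPM in 2iL, 10.7 and 10.6 in 2iL-F and 0.858 and 0.761 in A2iL (-2.08 ± 0.11).

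Several factors that were higher than in 2iL lay near their level in 2iL-F. Klf4, a factor downstream of LIF and STAT3, had 156 and 154 TPM in 2iL and 563 and 553 in A2iL (1.84 ± 0.05), but 536 and 497 in 2iL-F (0.11 ± 0.05, adjusted p = 0.0808). Nr0b1, a repressor found in naive cells, had 68.4 and 67.5 TPM in 2iL, 154 and 155 in A2iL and 149.8 and 143 in 2iL-F, where the difference of 0.08 ± 0.04 did not pass (adjusted p = 0.172). Gbx2, induced by both STAT3 and ERK, was higher than in each: 11 and 10.7 TPM in 2iL, 28.1 and 23.4 in 2iL-F and 61.9 and 60.3 in A2iL. Mkrn1, a ubiquitin ligase gene on the naive list, had 151 and 149 TPM in 2iL, 111 and 109 in 2iL-F and 312 and 318 in A2iL, where it was highest of the 3 groups. Tbx3, a T-box factor, differed by 0.17 ± 0.06 from 2iL (adjusted p = 0.025), a call lost without either A2iL library or without the 2iL library numbered 5 (adjusted p = 0.0742 to 0.101), and it was lower than in 2iL-F (-0.75 ± 0.06).

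Core factors shared by naive and primed cells varied less. Of 10 tested, 2 were higher and 6 lower than in 2iL, and none was higher and 7 lower than in 2iL-F. Pou5f1 differed by -0.34 ± 0.04 from 2iL and by -0.10 ± 0.04 from 2iL-F, where it did not pass (adjusted p = 0.0815). Gdf3, a ligand of the NODAL family, had 86.4 and 88.6 TPM in 2iL, 115 and 115 in 2iL-F and 55.8 and 53.7 in A2iL. Alpl, the alkaline phosphatase used to stain stem cell colonies, had 273 and 263 TPM in 2iL, 209 and 201 in 2iL-F and 118 and 114 in A2iL (-1.20 ± 0.05), and A2iL was the lowest of the 3. Sall4, with 70.5 and 69.4 TPM in 2iL and 77.2 and 72 in A2iL, was not called (adjusted p = 0.102). Among formative and primed genes, which mark the step out of the naive state, 8 of 15 were higher and 2 lower than in 2iL (median 0.30), and 11 higher and 2 lower than in 2iL-F (median 0.35). These included Lef1, a partner of beta-catenin, at 0.0599 and 0.0375 TPM in 2iL, 0.753 and 0.656 in 2iL-F and 11.4 and 10.9 in A2iL (3.53 ± 0.08). Members often used to define the state did not rise: Otx2, a homeobox factor, was lower than in both groups (-1.03 ± 0.12 from 2iL and -0.84 ± 0.12 from 2iL-F), and Fgf5 was not called (0.20 ± 0.13, adjusted p = 0.216). Krt18, a keratin, was lower than in 2iL (-0.96 ± 0.10) and higher than in 2iL-F (1.05 ± 0.10), and these 3 were named after their values were seen. The A2iL libraries of Lef1 stood well above both groups with the 2iL medium. Cdh2, N-cadherin, had 0.185 and 0.235 TPM in 2iL, 5.5 and 5.65 in 2iL-F and 7.28 and 7.35 in A2iL, and it followed the fibroblast markers. Sfrp2, a Wnt antagonist, was higher than in 2iL (2.07 ± 0.09) and lower than in 2iL-F (-0.59 ± 0.09).

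**Figure D3:**
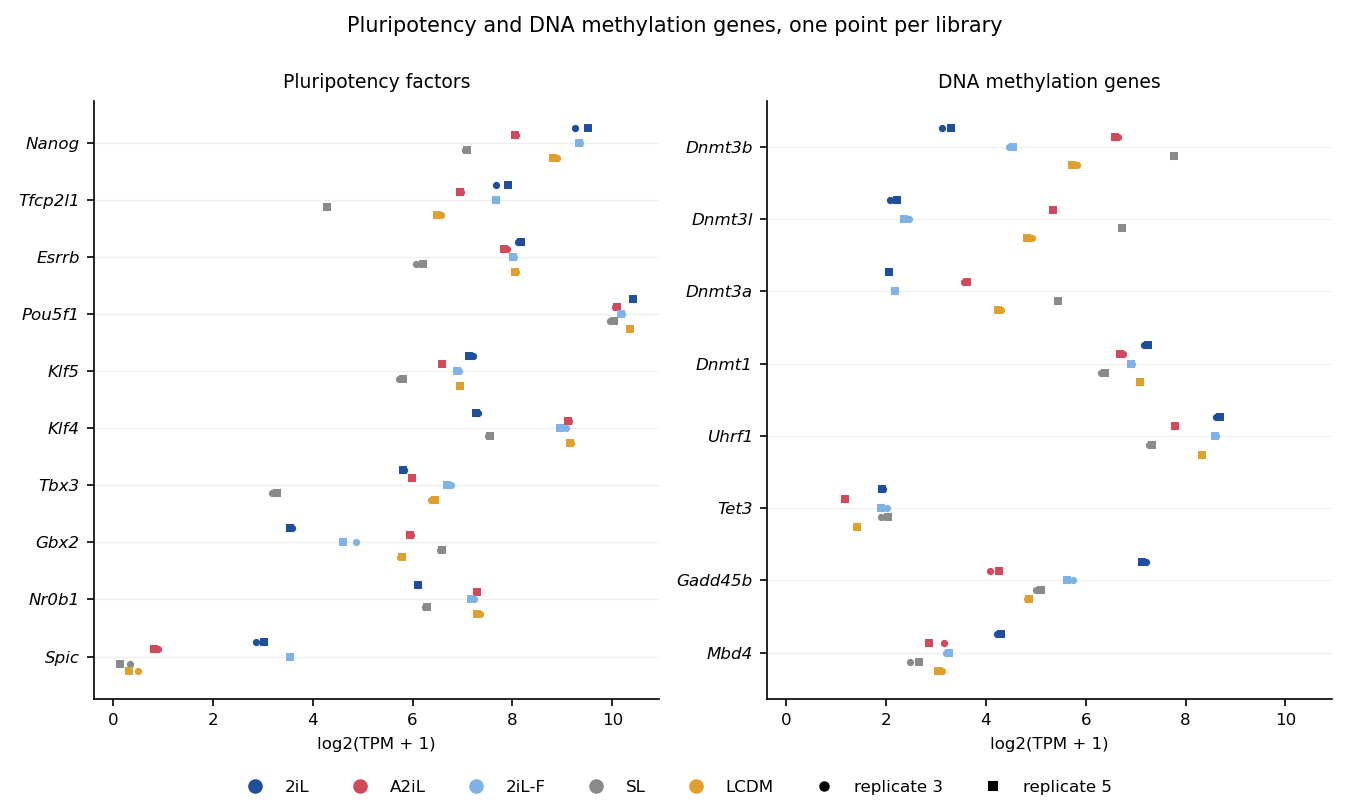
Level of 10 pluripotency factors (left) and 8 DNA methylation genes (right) in log2(TPM + 1); colours are conditions, circles and squares the libraries numbered 3 and 5. Nanog and Tfcp2l1 in A2iL lie below both groups with the 2iL medium, Klf4 and Nr0b1 lie with 2iL-F, and Dnmt3a, Dnmt3b and Dnmt3l lie above both groups with the 2iL medium.

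The enzymes that set DNA methylation differed by their role. De novo methyltransferase genes were higher in A2iL. Dnmt3b (chr2:153649450-153687730) had 7.73 and 8.82 TPM in 2iL and 99.1 and 94.6 in A2iL (3.40 ± 0.07, adjusted p = 1.33e-09). In order of the means, its level was 8.28 TPM in 2iL, 21.7 in 2iL-F, 53.6 in LCDM, 96.9 in A2iL and 216 in SL, and no neighbouring conditions overlapped. Dnmt3l, the cofactor without enzyme activity, had 3.2 and 3.67 TPM in 2iL, 4.49 and 4.12 in 2iL-F and 39.7 and 39.4 in A2iL (3.19 ± 0.07). Dnmt3a was at 3.08 and 3.16 TPM in 2iL and 10.7 and 11.2 in A2iL (1.54 ± 0.06; 1.42 ± 0.06 from 2iL-F). The maintenance genes went the other way: Uhrf1, which guides DNMT1 to hemimethylated DNA, had 388 and 413 TPM in 2iL, 388 and 382 in 2iL-F and 221 and 220.2 in A2iL (-0.86 ± 0.04). Dnmt1 itself had 143 and 152 in 2iL, 120.1 and 118 in 2iL-F and 106 and 102 in A2iL (-0.50 ± 0.05). Tet3, an enzyme that oxidises methylated cytosine, fell by 0.76 ± 0.09. Gadd45b, a stress gene also linked to demethylation, had 148 and 139 TPM in 2iL, 52.8 and 48.5 in 2iL-F and 16 and 18.1 in A2iL (-1.52 ± 0.07 from 2iL-F), with no overlap among the 3 groups. Over the whole list of 21 tested genes, 5 were higher and 8 lower than in 2iL (6 and 5 against 2iL-F), so the list as a whole had no common direction.

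Germline genes, many of which are silenced by promoter methylation, were more often lower. Of 22 tested, 2 were higher and 11 lower than in 2iL (median -0.36), but 6 higher and 7 lower than in 2iL-F (median -0.04). Dazl, an RNA-binding protein of germ cells, had 13.3 and 18 TPM in 2iL, 8.96 and 10.2 in 2iL-F and 1.74 and 1.21 in A2iL (-2.75 ± 0.15, adjusted p = 6.96e-07). Hormad1, a protein of the meiotic chromosome axis, and Sohlh2, a germ cell transcription factor, differed by -2.57 ± 0.16 and -1.87 ± 0.11 from 2iL and by -2.48 ± 0.16 and -1.93 ± 0.11 from 2iL-F. Mov10l1, of the piRNA pathway, differed from 2iL (-1.39 ± 0.11) but did not pass against 2iL-F (-0.24 ± 0.11). The numbers of higher germline genes were small and ranged from 1 without the A2iL library numbered 3 to 4 without the one numbered 5.

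Of 15 tested imprinted genes, 10 were higher and 3 lower than in 2iL, and 9 higher and 4 lower than in 2iL-F. H19, a long non-coding RNA expressed from the maternal copy (chr7:142575529-142578143), had 0.142 and 0.101 TPM in 2iL and 148 and 150 in A2iL (7.06 ± 0.05), but 672 and 666 in 2iL-F (-2.16 ± 0.05). It is abundant in embryonic fibroblasts, and its order over the 5 conditions was not that of the fibroblast sum, as SL had a mean of 79.2 TPM. Plagl1, a zinc finger gene expressed from the paternal copy, was lower than in both: 17.6 and 22.7 TPM in 2iL, 28.5 and 28.4 in 2iL-F and 4.4 and 3.55 in A2iL. Peg3 fell by 1.61 ± 0.08, and Grb10, an adaptor of growth factor receptors that followed the fibroblast markers, rose by 3.09 ± 0.10.

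Chromatin regulators of the Polycomb and trithorax groups were mostly lower, with 18 of 27 tested lower and 4 higher than in 2iL (7 higher without the 2iL library numbered 5), and 13 lower and 3 higher than in 2iL-F. Ezh2, which methylates histone H3 at lysine 27, had 91.8 and 103 TPM in 2iL, 49.5 and 50.3 in 2iL-F and 41.6 and 42.5 in A2iL (-1.19 ± 0.06). Ash2l, a subunit shared by the enzymes that methylate H3 at lysine 4, had 143 and 145 TPM in 2iL and 65.8 and 66.2 in A2iL (-1.11 ± 0.04), and Cbx2, a Polycomb reader, fell by 1.42 ± 0.08. Among 22 genes of retroelement silencing, 3 were higher and 8 lower (4 lower without the A2iL library numbered 5, and 5 higher without the 2iL library numbered 5). The share of these 22 called against 2iL, 50%, was below the 69.5% of all lines, of which 33.2% were higher and 36.2% lower. Against 2iL-F, 3 of the 22 were higher and 5 lower. Setdb1, the histone methyltransferase recruited by TRIM28, was higher than in both groups (0.34 ± 0.05 from 2iL and 0.31 ± 0.05 from 2iL-F). Trim28 was higher than in 2iL (0.24 ± 0.04) and lower than in 2iL-F (-0.17 ± 0.04). Ehmt2, another histone methyltransferase, was lower than in both (-0.62 ± 0.05 and -0.31 ± 0.05).

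RNA of several signalling ligands differed between the groups, and which cells made it was not tested. Bmp4, the BMP ligand made by stem cells and feeders, had 0.975 and 0.55 TPM in 2iL, 3.7 and 2.95 in 2iL-F and 30 and 34.5 in A2iL (4.25 ± 0.14, adjusted p = 2.92e-08), and Bmp2, a related ligand, had 0.173 and 0.278 in 2iL, 0.955 and 1.01 in 2iL-F and 10.8 and 10.5 in A2iL. For both ligands the A2iL libraries were above all 4 with the 2iL medium. Id3, a direct BMP target, had 0.049 and 0 TPM in 2iL, 90.4 and 97.2 in A2iL and 39.2 and 41.6 in 2iL-F, and it followed the fibroblast markers. Bmp7, another ligand, fell by 1.63 ± 0.09. Over BMP and SMAD genes, 10 of 18 were higher and 7 lower than in 2iL, against 4 and 6 compared with 2iL-F.

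For LIF and STAT3 there was no common direction, as 10 of 21 were higher and 9 lower than in 2iL (8 and 5 against 2iL-F). Lif itself had 5.91 and 6.21 TPM in 2iL, 6 and 7.57 in 2iL-F and 41.5 and 44.5 in A2iL (2.64 ± 0.09), although all media contained mLIF. Pim1, a kinase gene that STAT3 induces, had 536 and 533 TPM in 2iL, 389 and 339.7 in 2iL-F and 139.8 and 133 in A2iL (-1.96 ± 0.06, adjusted p = 2.08e-08). The cytokine Il6 and Osmr, the receptor of oncostatin M, were nearly absent from 2iL and had 9.4 and 9.37 and 7.61 and 7.29 TPM in A2iL. In 2iL-F they had 5.89 and 6.73 and 6.33 and 6.29 TPM, and they are the members of this list that followed the fibroblast markers.

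Among Wnt genes and targets of beta-catenin, 10 of 19 were higher and 3 lower (8 and 4 against 2iL-F). Axin2, the usual readout of the pathway, rose from 13.5 and 12.3 to 35.3 and 34.6 TPM (1.37 ± 0.06; 24.4 and 23.2 TPM in 2iL-F), and Wnt5a, a ligand also made by fibroblasts, from 0 in both libraries to 15.4 and 15.2 TPM. Ccnd2, a cyclin of the G1 phase, had 0.0932 and 0.035 TPM in 2iL, 19.4 and 20.1 in 2iL-F and 28.8 and 29.4 in A2iL (4.82 ± 0.07), and it followed the fibroblast markers. Sfrp1, a Wnt antagonist, had 171 and 181 TPM in 2iL, 154 and 147 in 2iL-F and 40.6 and 38.1 in A2iL (-2.13 ± 0.06).

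Fibroblast markers had the highest median difference of the lists, which follows the contrast in fibroblast RNA described above. Of 46 tested, 44 were higher than in 2iL (median 4.51), Sparc was lower and Mfap5 was not called, both named after their values were seen. The difference of Sparc was -0.13 ± 0.04 (adjusted p = 0.0308), a call lost without either A2iL library, without the 2iL library numbered 5, with both other scalings and with only the 4 libraries compared (adjusted p = 0.0769 to 0.136). Against 2iL-F, 18 were higher and 20 lower (median -0.02). Col1a1, a chain of type I collagen, had 0.2 and 0.264 TPM in 2iL, 407 and 381 in A2iL and 1058 and 974 in 2iL-F. Lox, which cross-links collagen, had 0 in both 2iL libraries, 173 and 169.5 in A2iL and 239 and 239.8 in 2iL-F. Tnc, tenascin, and Thbs2, a thrombospondin, were instead higher in A2iL than in 2iL-F (1.10 ± 0.05 and 1.68 ± 0.06), so that the fibroblast genes did not differ from 2iL-F by a common factor. Of 21 targets of SRF and YAP, which respond to actin tension, 15 were higher and 3 lower than in 2iL (median 0.89), but 7 higher and 3 lower than in 2iL-F (median -0.03). Cyr61, a secreted YAP target, had 30 and 34.8 TPM in 2iL, 181 and 165 in 2iL-F and 354 and 342 in A2iL, where it was highest of the 3. Acta2, smooth muscle actin, was at 0 in both 2iL libraries, at 23.7 and 24.8 TPM in A2iL and at 36.8 and 39.3 in 2iL-F, with a mean of 891 in SL. The part of fibroblast RNA in these lists was not tested.

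Interferon response genes were higher than in 2iL and level with 2iL-F. Of 26 tested, 22 were higher and 3 lower than in 2iL (median 1.15), against 5 and 5 compared with 2iL-F (median 0.00). Isg15, a ubiquitin-like protein induced by interferon, had 0.116 and 0.109 TPM in 2iL, 31.9 and 32.7 in A2iL and 33.9 and 30.8 in 2iL-F (adjusted p = 0.988 against 2iL-F). Irf7, a transcription factor of the same response, had 0.395 and 0.262 in 2iL, 8.57 and 8.54 in A2iL and 8.69 and 8.3 in 2iL-F. A2iL and 2iL-F overlapped in both genes. Of the 26, 8 followed the fibroblast markers, and 14 of the 18 others were higher than in 2iL.

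Acute phase and chemokine genes were higher in A2iL than in both groups with the 2iL medium. Of 27 tested, 25 rose and none fell against 2iL (median 3.16), with Nfkb2 and Relb, named for that reason, not called, and 23 were higher and 2 lower than in 2iL-F (median 1.19). The chemokine Ccl2 (chr11:82035571-82037453), which attracts monocytes, was at 0 in both 2iL libraries, at 582 and 616 TPM in A2iL and at 119 and 118 in 2iL-F, the largest difference from 2iL among the named genes (9.23 ± 0.05, adjusted p = 1.78e-12). Cxcl1, which attracts neutrophils, was likewise at 0 in 2iL, at 229 and 246 TPM in A2iL and at 70.2 and 76.8 in 2iL-F. Its means in SL and LCDM were 45.2 and 11.6 TPM, so the A2iL libraries were the highest of the 10. Ptgs2, the inducible cyclooxygenase, had 0.0766 and 0.054 TPM in 2iL, 118 and 116 in A2iL and 14.5 and 16.4 in 2iL-F (2.84 ± 0.07 from 2iL-F). Complement component C3 had 28.3 and 27.6 TPM in A2iL and 2.26 and 1.89 in 2iL-F, and Lcn2, a lipocalin that binds bacterial iron carriers, 11.8 and 11.8 in A2iL and 0.511 and 0.666 in 2iL-F. Means of both in SL and LCDM were under 1 TPM (0.38 and 0.211 for C3). Fibroblasts can make these proteins. The fibroblast sum was lower in A2iL than in 2iL-F, although 18 of the 46 markers were higher and 20 lower. Of the 27 genes, 9 followed the fibroblast markers, and 16 of the 18 others were higher than in 2iL. The part of fibroblast RNA in these differences was not tested.

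Steap4, a metalloreductase induced by inflammatory cytokines, is shown with its promoter because its letters match a STAT site, TTCNNNGAA, beginning 116 bases before the start (chr5:7960322-7960471, plus strand, 150 bases before the start in the same table, match in capitals).
Steap4: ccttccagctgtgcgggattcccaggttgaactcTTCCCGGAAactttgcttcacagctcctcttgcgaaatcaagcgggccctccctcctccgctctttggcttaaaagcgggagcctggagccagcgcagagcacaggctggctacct
Its level was 0 in both 2iL libraries, 37.9 and 37.1 TPM in A2iL, 3.74 and 3.57 in 2iL-F and a mean of 0.248 in LCDM (5.27 ± 0.08 from 2iL and 3.05 ± 0.08 from 2iL-F). The STAT letters were found in 2 of 20 acute phase genes with a window, or 10%, against 9.55% of all genes, a share near the background. The AP-1 site TGANTCA was found in 7 of the 20, or 35%, against 8.97%.

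Genes of the ATF4 response, which supplies amino acids under nutrient or endoplasmic reticulum stress, were lower than in 2iL. Of 40 tested, 26 were lower and 6 higher (median -0.61), against 15 and 10 compared with 2iL-F (median -0.03); none followed the fibroblast markers. A pair of members with opposite differences is printed with their promoters, chosen after their values were seen, since both hold the ATF4 letters TGATGNAA on one strand or the other. Each is the 150 bases before the start, with matches in capitals: Nupr1 at chr7:126625471-126625620, minus strand, with 1 match, and Slc7a11 at chr3:50443614-50443763, minus strand, with 2.
Nupr1: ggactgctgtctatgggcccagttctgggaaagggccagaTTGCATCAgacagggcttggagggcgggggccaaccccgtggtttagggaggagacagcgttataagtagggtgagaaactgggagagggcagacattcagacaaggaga
Slc7a11: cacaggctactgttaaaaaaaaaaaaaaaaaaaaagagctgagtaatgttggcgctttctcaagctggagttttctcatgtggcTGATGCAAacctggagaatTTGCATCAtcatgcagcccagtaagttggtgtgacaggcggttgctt
The ATF4 letters were found in 16 of 30 listed genes with a window, or 53.3%, against 4.51% of all genes. Nupr1, a stress-induced chromatin protein, had 128 and 126 TPM in 2iL, 46.5 and 47.3 in 2iL-F and 32.8 and 30.8 in A2iL (-1.97 ± 0.06, adjusted p = 1.49e-08). Slc7a11, the cystine importer, had 0.422 and 0.657 in 2iL, 1.76 and 1.84 in 2iL-F and 5.93 and 6.11 in A2iL (2.19 ± 0.11). In neither gene did the 3 groups overlap. Gpt2, a mitochondrial alanine transaminase, had 181 and 188 TPM in 2iL, 59.9 and 59.5 in 2iL-F and 34 and 31.4 in A2iL (-2.46 ± 0.07), and Ddit3, the stress factor CHOP, fell by 1.66 ± 0.09. For Slc7a3, an arginine transporter, A2iL was higher than 2iL (1.61 ± 0.09) and did not pass against 2iL-F (0.22 ± 0.09).

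Lipid synthesis genes were lower than in both: of 29 genes of cholesterol and fatty acid synthesis, 17 were lower and 6 higher than in 2iL, and 21 lower and 3 higher than in 2iL-F. Fads2, a fatty acid desaturase, had 362 and 307 TPM in 2iL, 216 and 212 in 2iL-F and 123 and 125 in A2iL (-1.42 ± 0.08), and Pmvk and Mvd, of the mevalonate pathway, fell by 1.56 ± 0.08 and 1.26 ± 0.06. Scap, the escort of the SREBP factors, rose by 1.24 ± 0.06 and followed the fibroblast markers. In glycolysis, 13 of 24 were higher and 8 lower than in 2iL, and 6 and 5 against 2iL-F. Pdk1, which shuts pyruvate out of mitochondria, had 7.58 and 8.02 TPM in 2iL, 8.87 and 9.1 in 2iL-F and 66.7 and 65.1 in A2iL (2.93 ± 0.05, adjusted p = 5.96e-10), well above both. Hk2, a hexokinase, went the other way (-1.17 ± 0.04), while Slc16a3, a lactate exporter, had 11.4 and 10.4 TPM in 2iL, 45.4 and 45.6 in A2iL and 47 and 43.9 in 2iL-F and followed the fibroblast markers. Of 57 genes of oxidative phosphorylation, 25 were lower and 6 higher than in 2iL (3 higher without the A2iL library numbered 5), with a median of -0.09, and the share called, 54.4%, was below that of all lines. Against 2iL-F, 13 of the 57 were lower and 5 higher. Of 39 glutathione and redox genes, 19 were higher and 11 lower than in 2iL, and 16 higher and 16 lower than in 2iL-F. Mgst1, a membrane glutathione transferase, had 0.435 and 0.164 TPM in 2iL, 12.7 and 11.6 in 2iL-F and 25.3 and 24.9 in A2iL (4.33 ± 0.11), and it followed the fibroblast markers. Aldh1a3, which makes retinoic acid, had 5.77 and 6.66 in 2iL, 3.91 and 3.03 in 2iL-F and 0.344 and 0.277 in A2iL (-2.46 ± 0.12). Lysosome and autophagy genes had 15 of 36 higher and 15 lower than in 2iL, and 11 higher and 10 lower than in 2iL-F. Among them were Gpnmb, a lysosomal glycoprotein (2.49 ± 0.07 from 2iL), and Ctsc, a cathepsin (-1.62 ± 0.09 from 2iL). Against 2iL-F, 8 of 21 ribosomal proteins were higher and 1 lower (median 0.15). Against 2iL, 5 were lower and none higher, with a median of 0.02. Without the 2iL library numbered 5, 8 were higher, and without the A2iL library numbered 5, 2 were lower.

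Genes of DNA replication, repair and mitosis were included because the series concerns genome stability, and more of them were lower than higher than in 2iL, by small amounts. Of 45 tested genes of replication and its checkpoint, 26 were lower and 4 higher than in 2iL (median -0.22), and 16 lower and 1 higher than in 2iL-F (median -0.13). Without the 2iL library numbered 5, 8 were higher than in 2iL, and without the A2iL library numbered 3, 1 was. Cdt1, which loads the replicative helicase, had 186 and 213 TPM in 2iL, 119 and 109.8 in 2iL-F and 107 and 98.8 in A2iL (-0.95 ± 0.07; -0.15 ± 0.07 from 2iL-F, adjusted p = 0.113). Cdc45, a part of that helicase, fell from 66.6 and 73.7 to 39 and 40.8 TPM and was lower than in 2iL-F too (-0.67 ± 0.06). Of 36 mitotic genes, 22 were lower and 2 higher than in 2iL (4 higher without the 2iL library numbered 5), and 10 and 3 against 2iL-F. Ccnb2, a mitotic cyclin, had 255 and 258 TPM in 2iL, 169 and 165 in 2iL-F and 124 and 133 in A2iL (-0.99 ± 0.04), and Aurkb, a kinase of chromosome segregation, fell by 0.86 ± 0.04. Of 35 genes of double-strand break repair, 16 were lower and 5 higher than in 2iL (3 higher without the A2iL library numbered 5), but 5 lower and 6 higher than in 2iL-F. The share of these 35 called against 2iL, 60%, was below the 69.5% of all lines. Bard1, the partner of BRCA1, had 28.8 and 35.8 TPM in 2iL and 16.8 and 17.5 in A2iL (-0.86 ± 0.09), with 20.5 and 20.9 in 2iL-F. Fibroblast RNA takes a larger share of the TPM in A2iL than in 2iL, and its part in these small differences was not tested. Among 27 targets of p53, 14 were higher and 10 lower than in 2iL, and 13 higher and 3 lower than in 2iL-F. Mdm2, the ubiquitin ligase of p53, had 43.7 and 53.6 TPM in 2iL, 68.3 and 73.6 in 2iL-F and 118 and 122 in A2iL (1.29 ± 0.09), and Plk2, a stress kinase, rose by 1.95 ± 0.05. Fas, a death receptor that followed the fibroblast markers, had 0.0487 and 0.137 TPM in 2iL, 7.94 and 8.39 in 2iL-F and 12.7 and 13 in A2iL, whereas Rrm2b, a ribonucleotide reductase subunit, fell by 1.54 ± 0.13.

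Lineage markers other than fibroblast genes were mixed. Of 15 trophoblast genes tested, 8 were lower and 3 higher than in 2iL (median -0.96), with the same counts against 2iL-F (median -0.33). Gata2, a trophoblast and blood factor, had 27.1 and 29.3 TPM in 2iL, 2.33 and 1.88 in 2iL-F and 1.14 and 0.728 in A2iL (-3.92 ± 0.12), and Rhox6, a homeobox gene of placenta and germ cells, 44.9 and 44.7 in 2iL, 6.9 and 6.74 in 2iL-F and 5.51 and 4.97 in A2iL. For both, 2iL stood apart from the other 2 groups. Of 14 primitive endoderm genes, 8 were higher and 4 lower than in 2iL, and 4 of the 8 followed the fibroblast markers. Among these 4 were the basement membrane genes Col4a1 and Col4a2, higher by 4.27 ± 0.07 and 3.65 ± 0.06. Gata4, a defining factor that did not follow them, had 9.9 and 8.44 TPM in 2iL and 4.13 and 2.83 in A2iL. Its 2iL-F values, 2.4 and 2.51 TPM, lay below A2iL, a difference that did not pass (0.36 ± 0.14, adjusted p = 0.0656). Epithelial junction genes had 10 of 19 lower and 5 higher than in 2iL, but 4 lower and 10 higher than in 2iL-F. Cdh1, E-cadherin, had 615 and 645 TPM in 2iL, 349.9 and 344 in 2iL-F and 236 and 231 in A2iL (-1.43 ± 0.05), and Cldn7, a claudin, had 65.8 and 68 in 2iL, 4.4 and 4.44 in 2iL-F and 23 and 22 in A2iL, between the 2 groups. Of 8 mesoderm markers tested, 2 were higher and 2 lower (median 0.08). The sum over all 13 listed was 56.4 and 47 TPM in 2iL and 25.5 and 22.7 in A2iL, but Gsc, described below, made up most of it in 2iL, and without Gsc the sums were 16.5 and 15.3 in 2iL and 24.3 and 21.9 in A2iL. Of 6 neural markers tested, 3 were higher and 2 lower (median 0.43). Nes, nestin, an intermediate filament of neural progenitors, had 31.3 and 29.5 TPM in 2iL and 7.9 and 8.38 in A2iL, and the other 13 neural markers listed summed to 3.94 and 3.24 in 2iL and 7.87 and 8.88 in A2iL. Without the leading gene, both sums were thus higher in A2iL. The 2 mesoderm markers called higher were Pdgfra, which is also one of the fibroblast markers, and Snai2. Pdgfra had 0.0962 and 0.148 TPM in 2iL, 1.59 and 1.6 in 2iL-F and 6.45 and 5.36 in A2iL. Snai2 had 0.13 and 0.2445 in 2iL, 5.97 and 6.74 in 2iL-F and 6.35 and 5.29 in A2iL. The 2 called lower were Gsc and Gata4. The part of fibroblast RNA in the mesoderm sum was not tested. Of 10 endothelial and blood markers tested, 4 were higher and 4 lower (2 higher without the A2iL library numbered 3). All 14 listed summed to 182 and 182 TPM in 2iL and 123 and 122 in A2iL. Of these, Pecam1, also a stem cell surface protein, made up 70.3 and 73.4 in 2iL and 24.5 and 24.2 in A2iL.

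The plot of list medians sets the 2 comparisons side by side. The ERK lists and the acute phase list lie to the right in both, whereas fibroblast, contractile and interferon genes lie near 0 against 2iL-F.

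**Figure D4:**
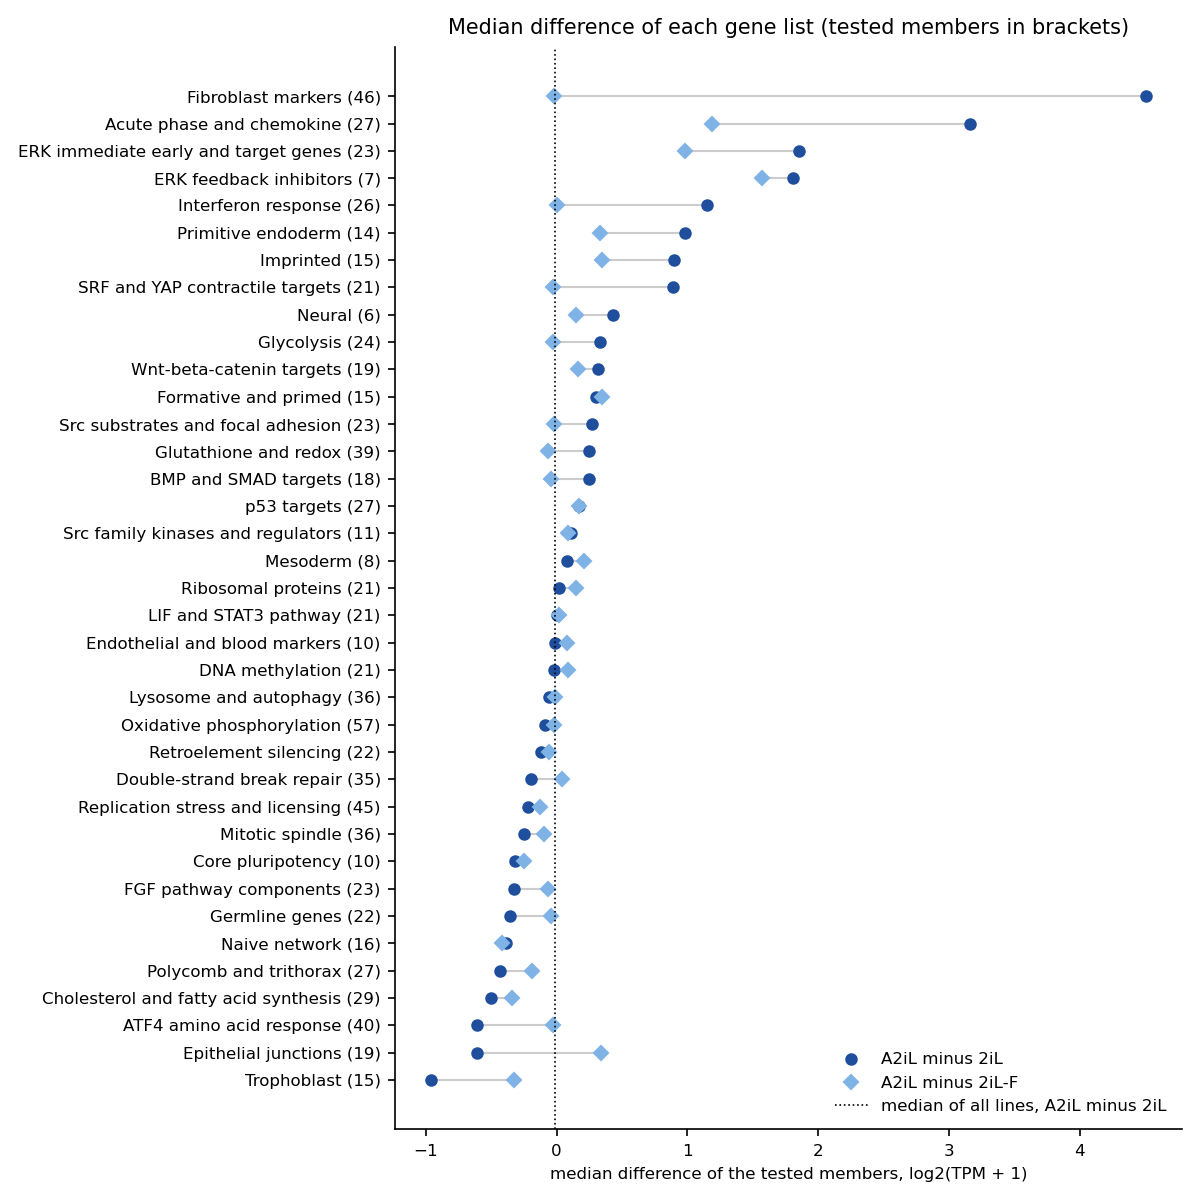
Median difference of the tested members of each list with at least 6 of them, in log2(TPM + 1), for A2iL minus 2iL (circles) and A2iL minus 2iL-F (diamonds, same A2iL libraries); the dotted line is the median of all lines. Fibroblast markers had a median of 4.51 against 2iL and -0.02 against 2iL-F, ERK feedback inhibitors 1.81 and 1.57.

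Some single genes differed from both groups with the 2iL medium by several log2 units. Mmp9, a secreted gelatinase (chr2:164940780-164955850), had 0.669 and 0.233 TPM in 2iL, 0.354 and 0.419 in 2iL-F and 81.4 and 79.4 in A2iL (5.83 ± 0.14 and 5.88 ± 0.14), with a mean of 14.2 in SL. Trh, the precursor of thyrotropin-releasing hormone, reached 1100 and 1097 TPM in A2iL, from 29.6 and 31.5 in 2iL and 64.5 and 59.6 in 2iL-F (5.12 ± 0.05, adjusted p = 3.39e-11), and its SL mean was 343. Those 2 A2iL libraries were the highest of the 10 for both genes. Mcpt8, a protease otherwise known from basophils, was at 0 in both 2iL libraries, at 0.0896 and 0 in 2iL-F and at 17.2 and 20.7 TPM in A2iL, below the SL mean of 26.9. Crabp1, which binds retinoic acid, had 42.4 and 37.3 TPM in 2iL, 91.4 and 83.6 in 2iL-F and 639 and 655 in A2iL (3.99 ± 0.07).

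In the other direction, Calcoco2, an autophagy receptor (chr11:96099326-96111964), had 121 and 125 TPM in 2iL, 164 and 167 in 2iL-F and 2.52 and 2.65 in A2iL (-5.11 ± 0.09, adjusted p = 6.04e-10), the largest fall among the named genes, and means of 4.35 in SL and 13.9 in LCDM. Aqp3, a channel for water and glycerol, had 247 and 254 TPM in 2iL, 132 and 141 in 2iL-F and 12.3 and 12.2 in A2iL (-4.25 ± 0.05). In both genes the 4 libraries with the 2iL medium were above all 6 others. Gsc, goosecoid, a homeobox gene of the early organiser, had 39.9 and 31.6 TPM in 2iL, 22.1 and 25.6 in 2iL-F and 1.25 and 0.792 in A2iL (-4.18 ± 0.18). Vwf, von Willebrand factor, and Smtnl1, a smoothelin-like muscle protein, differed by -3.42 ± 0.09 and -3.42 ± 0.11 from 2iL and by -2.70 ± 0.09 and -4.13 ± 0.11 from 2iL-F. Ppp2r2c, a regulatory subunit of protein phosphatase 2A, had 54.3 and 56.7 TPM in 2iL, 37.1 and 37.3 in 2iL-F and 6.38 and 7.39 in A2iL. Mitf, a factor of pigment cells and lysosome genes, fell by 2.03 ± 0.13 against 2iL, and Folr1, the folate receptor, by 2.10 ± 0.11.

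**Figure D5:**
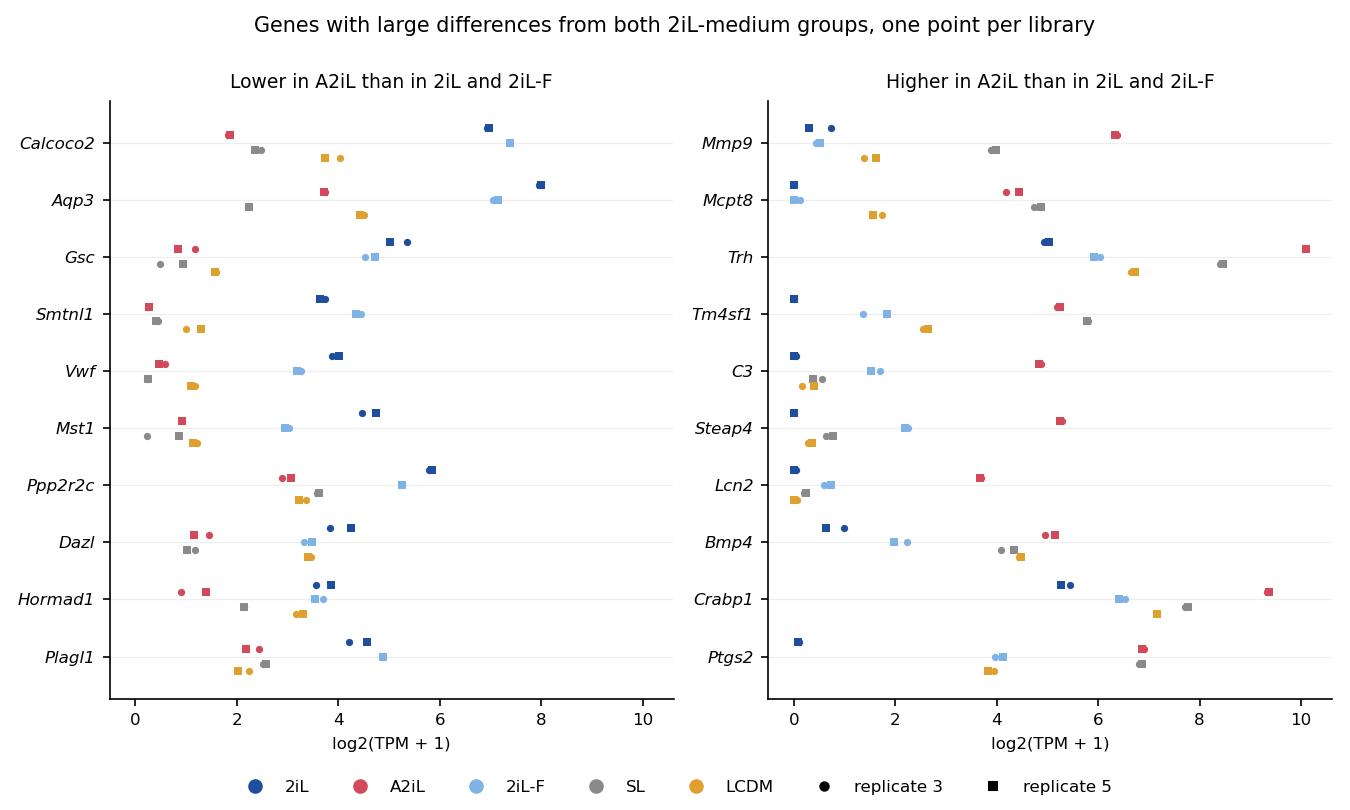
Level of 10 genes lower (left) and 10 genes higher (right) in A2iL than in both groups with the 2iL medium, in log2(TPM + 1); colours are conditions, circles and squares the libraries numbered 3 and 5. Calcoco2, Aqp3 and Gsc are highest in the 4 libraries with the 2iL medium, and Trh and Mmp9 are highest in A2iL.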

How the data were processed

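TPM values, a length-normalised unit, were deposited by the authors as 1 table of 20494 lines and 10 libraries. The submitters' processing notes name Bowtie2, RSEM, DESeq2, R 3.4.2 and the build mm10, with neither their order nor the other versions. TPM keeps no depth, so the depth is unknown and no counting interval is given. Values were taken as log2(TPM + 1). The 14578 lines with at least 1 TPM in 2 or more libraries were fitted over all 10 libraries by limma 3.58.1 (R 4.3.3), with moderation that follows the mean level and 5 residual degrees of freedom. P-values are two-sided, from limma's moderated test, and Benjamini-Hochberg adjusted over all lines, with a threshold of 0.05. On simulated data with 200 changed lines of 14578, the fit recovered 91.2% of those changed by 1 log2 unit and 61.2% at 0.5. Of its calls there, 4.6% were false. Far fewer lines were changed in that simulation than were called here, so these shares do not carry over to the calls above.

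Genes were named from the upper part of the table, since symbols further down did not stand beside their own values. Named were the 15 largest differences in each direction from 2iL, and from both 2iL and 2iL-F, with at least 5 TPM and groups apart; up to 6 called members of each list; and a set of pathway genes. Not every gene that met this rule is described. Exceptions within a list, Dusp1 and the promoters printed were chosen after their values were seen. The members and the gene lists were chosen with earlier results of these data known. Promoters are from RefSeq's table for GRCm38.p6, and gene coordinates from GENCODE vM21 on mm10.

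The alternatives were another pseudocount and filters, median-of-ratios scaling and quantile normalisation, fewer libraries, robust eBayes, a replicate block, each A2iL and 2iL library left out, and the lines restricted. Leaving out each 2iL-F library was added after seeing the data.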

Additional observations from a re-analysis of the deposited data

How the results depend on the processing

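Of 14578 lines, 10127 were called (4843 higher, 5284 lower in A2iL than in 2iL), and the count kept within 1.5 times under every alternative that kept the lines of the whole table, from 8166 with a filter of 5 TPM to 11050 with no filter. Among the 7962 lines tested in the upper part of the table alone, 5872 were called, 2766 higher and 3106 lower, and 4030 against 2iL-F in place of 6597, since fewer lines were tested. Leaving out one A2iL or 2iL library gave 8934 to 9947 called, 4227 to 5064 higher and 4700 to 5424 lower, and 5039 to 7413 against 2iL-F. Same-numbered libraries did not deviate together from their condition means (r from -0.131 to 0.0746 between pairs of conditions), so the numbers were not taken to pair them, and the replicate block gave 9995 called lines. Without the 865 lines that followed the fibroblast markers, those higher by at least 1 fell to 1044 from 1658. Median-of-ratios scaling moved the median difference by 0.02 and quantile normalisation by -0.039. Over the genes named, Pdgfra and Snai2 apart, 2522 of 2555 pairs of gene and alternative kept direction and call. The exception in direction was Elk1, called in neither, with 0.04 over all libraries and -0.07 to 0.14 when each A2iL library in turn was left out. Calls of Tbx3, Sparc and Fn1 were lost, and Src, Yes1, Sall4, Map2k1, Nfkb2 and Mfap5 gained a call, in some settings (by limma, adjusted p up to 0.0983 for Fn1 and down to 0.00108 for Nfkb2); the cause was not tested. With depth unknown, values under 1 TPM carry an unknown counting error.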
